A study of Mus musculus with 2 samples.

Results

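The genes of the mitochondrial respiratory chain and the ATP synthase were compared between the mouse cell lines SVEC4-10, from an axillary lymph node, and MS-1, from the microvasculature of the pancreas. The members were all genes with a probe set annotated to that gene alone whose symbol marks a subunit of complexes I to V, cytochrome c or a complex I assembly factor (symbols starting with Nduf, Uqcr, Atp5 or Cox4 to Cox8, and Sdha to Sdhd, Cyc1 and Cycs). This gave 92 genes with 184 probe sets, of 18193 genes with 34945 such probe sets on the array. Both lines are known as endothelial lines immortalised with the SV40 large T antigen, and each was grown to confluence over 3 to 5 days, up to passage 5, in DMEM with fetal calf serum, 10% for SVEC4-10 and 5% for MS-1. There was 1 Affymetrix array of 1 culture per line, so no difference has a replicate check, no p-value was computed, and line, serum and culture cannot be told apart.

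The respiratory chain sits in the inner mitochondrial membrane. Complex I takes electrons from NADH and complex II from succinate, coenzyme Q carries them to complex III, cytochrome c carries them on to complex IV, and complex IV hands them to oxygen. Complexes I, III and IV pump protons as they work, and complex V, the ATP synthase, makes ATP from the returning protons. Most subunits are encoded in the nucleus, and a few of complexes I, III, IV and V in mitochondrial DNA. Endothelial cells are known to draw much of their ATP from glycolysis.

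Values are deposited signals on a linear scale, which follow transcript abundance for 1 probe set but do not rank different genes. A background signal was set from 129 probe sets of genes that these cells should lack (chemosensory receptors and proteins of hair), at 17.6 for SVEC4-10 and 16.3 for MS-1. Genes exceeding it in either line count as measured, and each log2 ratio is of SVEC4-10 over MS-1. The only error the data hold is the spread between probe sets of the same gene, which was 0.48 on the log2 scale over 4813 genes and 0.33 over the 46 members that allow it. It leaves out any variation between cultures. The 21 probe sets of the bacterial poly-A spike-in controls had a median ratio 1.43-fold higher in SVEC4-10, and scaling to them would lower every log2 ratio by 0.51, so a ratio between 0 and 0.51 would change sign.

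Endothelial identity was seen in the MS-1 array but hardly in the one labelled SVEC4-10. Of 12 endothelial markers, 11 were measured, with a summed signal of 105 in SVEC4-10 and 26827 in MS-1, and only Kdr (21.9) and Eng (24.6) exceeded background in SVEC4-10. All 10 markers of fibroblasts, pericytes and smooth muscle were at least 2-fold higher in SVEC4-10, with a summed signal of 41464 in SVEC4-10 and 165 in MS-1. Their part in the differences described next was not tested.

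Respiratory chain transcripts were abundant and nearly equal in SVEC4-10 and MS-1, apart from a small number of genes. Of the 92 genes, 86 were measured, 85 of them above background on both arrays and Cox7a1 on the SVEC4-10 array only. Of these 86, 67 lay within 1.5-fold and 79 within 2-fold, and 65 lay within the probe-set error of 0.48 over all genes. The error over the members themselves was narrower, at 0.33. The genes at least 2-fold higher in SVEC4-10 numbered 6 of 86 (6.98%), against 15.3% of all 12583 measured genes, and the genes at least 2-fold lower numbered 1 (1.16%), against 12.1%. Scaled to the poly-A controls these counts became 0 and 8, and the shares of all measured genes 8.63% higher and 25.4% lower. At 1.5-fold, 12 members were higher, against 25% of all measured genes, and 7 lower, against 21.8%. In either direction 46.8% of all measured genes passed 1.5-fold.

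The median log2 ratio was 0.14, against 0.018 for all measured genes, a difference of 0.12, which scaling an array by 1 factor cannot change. This difference was 0.19 with quantile normalization and 0.035 without the less specific probe set classes. Under the poly-A scaling the medians were -0.37 for the members and -0.49 for all measured genes. The ratios of the members had an SD of 0.49 between genes, against 1.38 for all measured genes. The members ranged from -1.44 for Ndufaf4 to 1.41 for Cox7a1, the second being a lower bound because Cox7a1 was below background in MS-1. No member was 4-fold apart, with Cox7a1 counted at its lower bound.

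**Figure D1:**
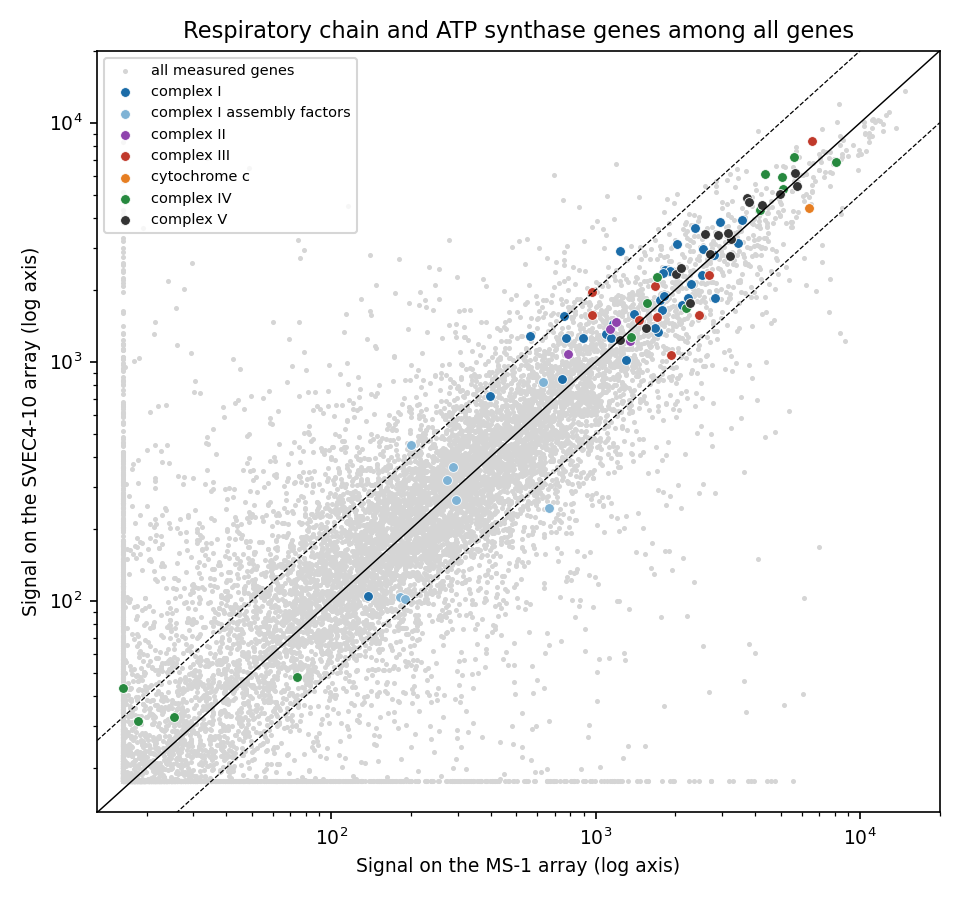
Signal of each gene on the SVEC4-10 array (y axis, log scale) against the MS-1 array (x axis, log scale), with values below background set to background. Grey points are all measured genes and coloured points the 86 measured members by complex; the solid line marks equal signal and the dashed lines 2-fold differences. Of the members, 79 lie between the dashed lines.

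Signal level bears on this, because most members gave strong signals. Among genes with a geometric mean signal of 1000 or more over both arrays, 3 of 68 members (4.41%) were at least 2-fold higher in SVEC4-10 and 0 lower, against 6.61% higher and 8.58% lower (15.2% in all) of 1270 genes of that class. The SD of the log2 ratios was 0.38 for these members and 0.76 for the class. Among the 18 members below that signal, 3 (16.7%) were at least 2-fold higher and 1 (5.56%) lower. Of all 11313 genes below it, 16.3% were higher, near the share of the members, and 12.5% were lower. The SD was 0.79 for these members and 1.43 for those genes. Other constitutive complexes of the bright class differed in spread. The SD was 0.16 for 28 cytosolic ribosomal protein genes and 0.34 for 27 proteasome subunit genes, but 0.58 for 17 mitochondrial ribosomal protein genes, of which 17.6% were at least 2-fold apart. The medians of these sets were -0.23, -0.16 and -0.23, and that of the bright respiratory chain genes was 0.11. Under the poly-A scaling all of these medians lie below 0. With 1 array per line these differences were not tested.

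**Figure D2:**
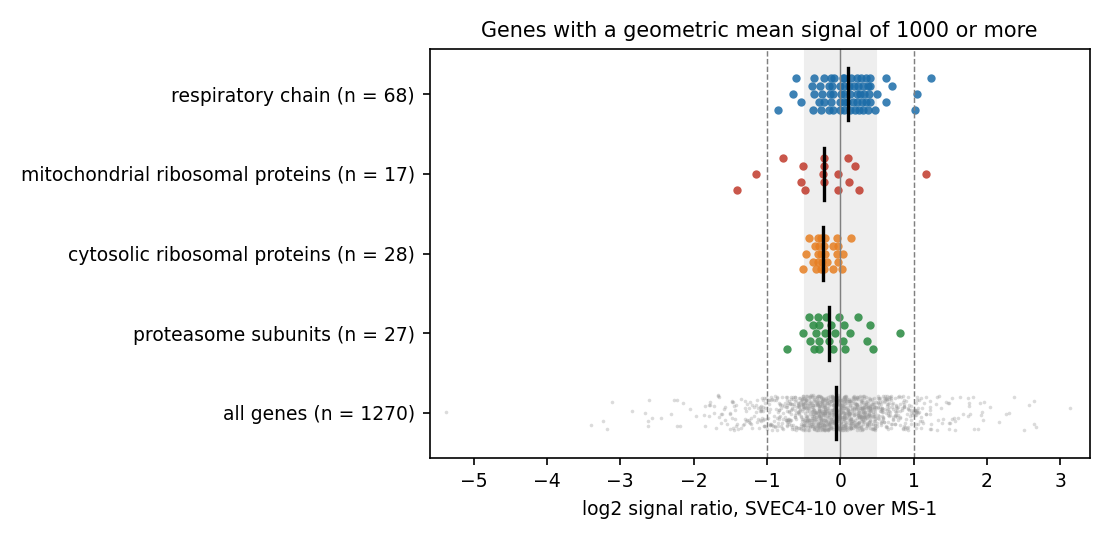
log2 signal ratio of SVEC4-10 over MS-1 (x axis) for genes with a geometric mean signal of 1000 or more. Each point is a gene, black bars are medians, the grey band is the probe-set error of 0.48 and dashed lines mark 2-fold differences; the 68 respiratory chain genes have a median of 0.11 and an SD of 0.38, against -0.054 and 0.76 for all 1270 genes.

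Complex I, the largest complex of the chain, has a hydrophilic arm that holds the flavin and the iron-sulfur clusters and a membrane arm that pumps protons. Of its 34 listed genes 33 were measured. Of these, 3 (9.09%) were at least 2-fold higher in SVEC4-10 and 0 lower, below the 15.3% and 12.1% of all measured genes, and the median log2 ratio was 0.19. Most of the 33 genes had a geometric mean signal of 1000 or more. Of all genes of that class 6.61% were higher, fewer than in complex I, and 8.58% lower. The 14 genes of the hydrophilic arm had a median of 0.40. Of them, 5 (35.7%) were at least 1.5-fold higher in SVEC4-10, against 25% of all measured genes and 15.3% of that bright class. The 18 measured genes of the membrane arm had a median of 0.16, and 2 (11.1%) were at least 1.5-fold higher. The difference between the arms was not tested. Apart from the acyl carrier Ndufab1, which belongs to both arms and was counted in neither, no subunit gene of the arms was 1.5-fold lower in SVEC4-10, although under the poly-A scaling both medians fall below 0.

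Ndufs7, which carries the last iron-sulfur cluster before coenzyme Q, had a signal of 1554 in SVEC4-10 and 756 in MS-1. This is a 2.06-fold difference (log2 ratio 1.04), and its second probe set gave 0.88. Ndufs1, which holds further iron-sulfur clusters, had signals of 718 in SVEC4-10 and 399 in MS-1 (log2 ratio 0.85), both read by 1 probe set. Ndufv1, which binds the flavin and NADH, had signals of 1258 in SVEC4-10 and 893 in MS-1, with log2 ratios from 0.49 to 0.66 over 3 probe sets. The other core subunits were closer to equal. Ndufs3 had a log2 ratio of 0.15, Ndufs8 of -0.0018 (signals 2804 in SVEC4-10 and 2808 in MS-1) and Ndufv2 of -0.12. The probe sets of Ndufs8 (-0.38 to 0.30) and Ndufv2 (-0.18 to 0.32) lay on both sides of 0. Of the 6 measured core subunits, 4 thus lay above 0 and 2 below.

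Accessory subunits of the hydrophilic arm included the member of complex I with the highest ratio. Ndufa2 had signals of 2903 in SVEC4-10 and 1231 in MS-1 (2.36-fold, log2 ratio 1.24). It was read by 1 probe set, of a class that can match several transcripts. Ndufa6 had signals of 1259.9 in SVEC4-10 and 769 in MS-1 (log2 ratio 0.71). Ndufa7 had signals of 3118 in SVEC4-10 and 2030.2 in MS-1, and all 5 of its probe sets lay between 0.42 and 0.70. Ndufa5 and Ndufs4 were lower in SVEC4-10, with log2 ratios of -0.36 and -0.35, within the error of 0.48 but beyond the 0.33 of the members. A second probe set of Ndufa5 gave -0.56, beyond both. For Ndufs4 a dim probe set gave 1.74, the widest disagreement among the members. Ndufa12 was read as 0.40, with other probe sets down to -0.67, so its direction is not settled by these arrays. The median of the hydrophilic arm lies between Ndufa12 and Ndufv3 (0.40), so it rests partly on this reading.

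In the membrane arm, Ndufb3, a small accessory subunit, had signals of 1284 in SVEC4-10 and 564 in MS-1 (2.27-fold, log2 ratio 1.19, 1 probe set). Ndufb9 had signals of 3636 in SVEC4-10 and 2365 in MS-1, and its probe sets gave 0.62 and 0.68. The remaining 16 measured genes of this arm lay within 1.5-fold, between -0.39 for Ndufb1 and 0.38 for Ndufb11, although other probe sets of Ndufa3 and Ndufb8 gave -0.73 and 0.72. Among these 16, Ndufa1, the brightest member of complex I, had signals of 3911 in SVEC4-10 and 3576 in MS-1 (log2 ratio 0.13). Ndufab1, the mitochondrial acyl carrier protein that sits in both arms and also serves lipoic acid synthesis, had signals of 1855 in SVEC4-10 and 2813 in MS-1. Its log2 ratio was -0.60, but its 5 probe sets ranged from -0.73 to 0.54. Ndufb4 was not above background on either array by its 1 single-gene probe set.

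**Figure D3:**
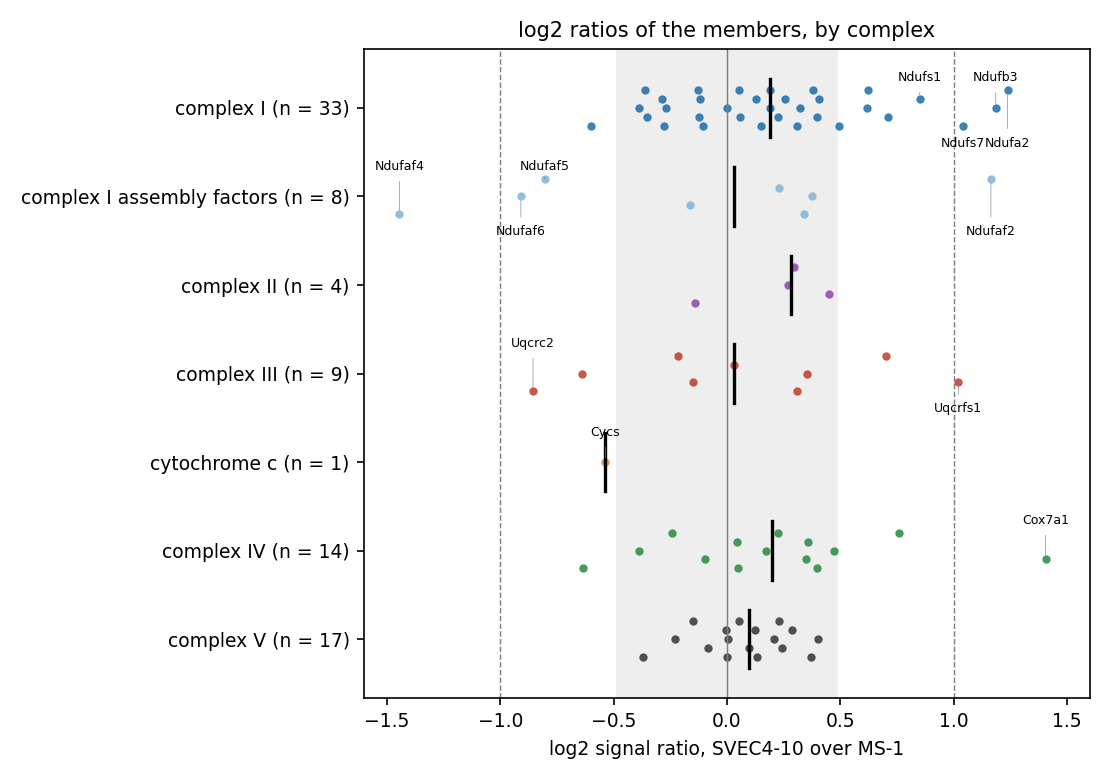
log2 signal ratio of SVEC4-10 over MS-1 (x axis) for the 86 measured members, by complex. Each point is a gene, black bars are medians, the grey band is the probe-set error of 0.48 and dashed lines mark 2-fold differences; complex V lies wholly between -0.37 and 0.40, whereas complex III runs from -0.86 to 1.02 and the assembly factors from -1.44 to 1.16.

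Complex I assembly factors, which are not part of the finished enzyme, had the widest spread of the groups. All 8 were measured, with an SD of 0.85 and a median of 0.033. In SVEC4-10, 1 was at least 2-fold higher and 1 lower (12.5% each), near the 15.3% and 12.1% of all measured genes. Ndufaf2, a paralogue of the subunit Ndufa12, had signals of 447 in SVEC4-10 and 199.6 in MS-1 (2.24-fold, log2 ratio 1.16, 1 probe set). Ndufaf4, which works with Ndufaf3 early in assembly, had signals of 245 in SVEC4-10 and 667 in MS-1. It was thus 2.72-fold lower in SVEC4-10 (log2 ratio -1.44), and its second probe set gave -0.95. Its partner Ndufaf3 had signals of 263 in SVEC4-10 and 295 in MS-1, a log2 ratio of -0.16.

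Ndufaf6 had signals of 101 in SVEC4-10 and 191 in MS-1 (log2 ratio -0.91). Ndufaf5, which hydroxylates the Ndufs7 protein, had signals of 104 in SVEC4-10 and 181 in MS-1 (log2 ratio -0.80), in the direction opposite to Ndufs7. Ndufaf7, a methyltransferase of complex I, had a log2 ratio of 0.23, Ndufaf1 of 0.34 and Ndufaf8 of 0.37, all within the error of 0.48. Those of Ndufaf1 and Ndufaf8 lay beyond the 0.33 of the members. Signals of these factors were lower than 1000 on both arrays, where log2 ratios of all genes spread more widely (SD 1.43).

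All subunit genes of complex II, which also serves the citric acid cycle, were measured and lay within 1.5-fold. Sdha, the flavoprotein, had signals of 1220.3 in SVEC4-10 and 1348 in MS-1 (log2 ratio -0.14), but a second probe set gave 0.93 (signals 776 in SVEC4-10 and 407 in MS-1). Sdhb, the iron-sulfur subunit, had signals of 1365 in SVEC4-10 and 1132 in MS-1 (0.27). The membrane anchors Sdhc and Sdhd had log2 ratios of 0.29 (-0.091 by a second probe set) and 0.45.

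Complex III held differences in both directions. Its 9 genes had a median log2 ratio of 0.030 with an SD of 0.61. At 1.5-fold, 2 (22.2%) were higher in SVEC4-10 and 2 (22.2%) lower, near the 25% and 21.8% of all measured genes. All 9 had a geometric mean signal of 1000 or more, and of all genes of that class 15.3% were higher and 17.2% lower. Uqcrfs1, the Rieske iron-sulfur protein, had signals of 1959.9 in SVEC4-10 and 966 in MS-1 (2.03-fold, log2 ratio 1.02, 1 probe set). Uqcr11, a small subunit, had signals of 1567 in SVEC4-10 and 965 in MS-1 (0.70). Uqcrc2, a core protein of the matrix side, had signals of 1067 in SVEC4-10 and 1932 in MS-1, 1.81-fold lower in SVEC4-10, with log2 ratios of -0.86 and -0.65 by its probe sets. Its partner Uqcrc1 had signals of 1534 in SVEC4-10 and 1702 in MS-1 (-0.15).

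Uqcrq, which touches the cytochrome b subunit, had a log2 ratio of -0.64, with dim probe sets up to 0.098. Cyc1, the cytochrome that passes electrons to cytochrome c, had signals of 2072 in SVEC4-10 and 1674 in MS-1 (0.31), and Uqcrb had signals of 8388 in SVEC4-10 and 6570.1 in MS-1 (0.35), with a second probe set at 0.84 (signals 2032 in SVEC4-10 and 1136 in MS-1). Cycs, cytochrome c itself, which also triggers apoptosis when released, had signals of 4406 in SVEC4-10 and 6389 in MS-1. It was 1.45-fold lower in SVEC4-10, and its 3 measured probe sets ranged from -0.60 to -0.16.

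**Figure D4:**
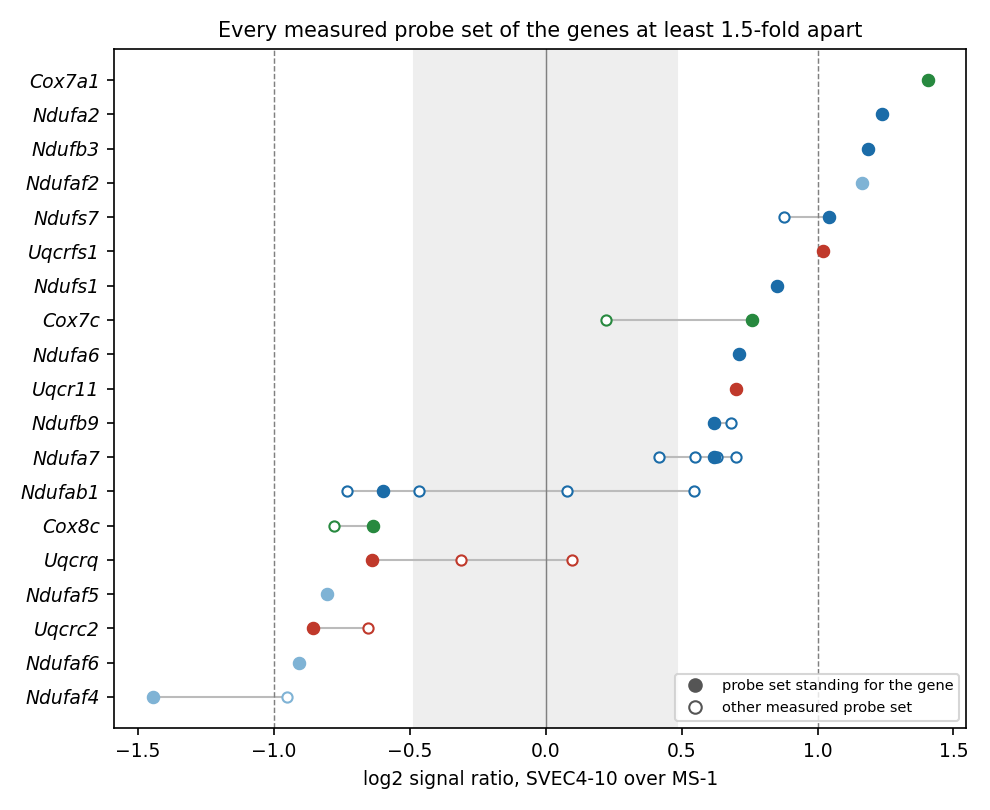
log2 signal ratio of SVEC4-10 over MS-1 (x axis) for every measured probe set of the 19 members at least 1.5-fold apart (rows). Filled points are the probe set standing for the gene and open points its other probe sets (blue complex I, light blue its assembly factors, red complex III, green complex IV). The grey band is the error of 0.48 and dashed lines mark 2-fold differences. Of the 9 genes with several probe sets, 7 keep 1 sign. Over all 50 members with several measured probe sets, 33 keep 1 sign and 17 do not, and 5 have probe sets over 1 log2 unit apart.

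Several subunits of complex IV exist as isoforms that differ between tissues. The widely expressed forms gave strong signals on both arrays. Cox4i1 had signals of 5903 in SVEC4-10 and 5048 in MS-1 (log2 ratio 0.23), Cox6a1 had 6830.5 in SVEC4-10 and 8089 in MS-1 (-0.24), and Cox6b1 had 6073 in SVEC4-10 and 4379.96 in MS-1 (0.47). Cox7a2 had signals of 7172 in SVEC4-10 and 5639.6 in MS-1 (0.35), but a second bright probe set gave 0.79 (signals 4393 in SVEC4-10 and 2548 in MS-1). Cox8a had 1674 in SVEC4-10 and 2189 in MS-1 (-0.39). Cox7a2l, which helps join complexes III and IV, had 1755 in SVEC4-10 and 1559 in MS-1 (0.17), with probe sets down to -0.25. By the probe set standing for each gene none of these reached 1.5-fold. Over the 14 measured genes of the complex the median was 0.20.

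Isoforms of restricted tissues were at or near background. Cox4i2, known from lung, Cox6b2 and Cox7b2, known from testis, and Cox8b, known from heart and skeletal muscle of rodents, were not above background on either array. Ndufa4l2, induced by hypoxia in other cells, was not above background either, whereas Ndufa4, which is now counted with complex IV, had signals of 1265 in SVEC4-10 and 1354 in MS-1 (-0.098). The muscle isoform Cox6a2 had signals of 32.5 in SVEC4-10 and 25.4 in MS-1, and the testis isoform Cox8c had 47.8 in SVEC4-10 and 74.4 in MS-1 (log2 ratio -0.64).

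Cox7a1, the heart and skeletal muscle isoform, had a signal of 43.1 in SVEC4-10 and was below background in MS-1 (14.1). It was at least 2.65-fold higher in SVEC4-10 (log2 ratio 1.41), which became 0.41 with background doubled. Of 6 markers of heart and skeletal muscle, Ckm was measured with signals of 17.6 in SVEC4-10 and 21.2 in MS-1, Actc1 exceeded background in MS-1 only (20.3), and 4 were not above background on either array. Cox7c was read by probe sets near background (signals 31.4 in SVEC4-10 and 18.5 in MS-1), so its log2 ratio of 0.76 rests on little signal. Cox7b was not analysed here.

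Complex V was the most even of the larger complexes. All 17 genes were measured, and by the probe set standing for each gene all lay within 1.5-fold and within the error of 0.48, with an SD of 0.21. Atp5d, Atp5h and Atp5mpl lay beyond the 0.33 of the members. All 17 had a geometric mean signal of 1000 or more. Of all 1270 genes of that class 67.5% lay within 1.5-fold, as did all 28 of its cytosolic ribosomal protein genes. Under the poly-A scaling the median of complex V was -0.42, and some genes, such as Atp5mpl (-0.88), passed 1.5-fold. In F1, the part with the catalytic sites, Atp5a1 (alpha) had signals of 2811 in SVEC4-10 and 2713 in MS-1 (log2 ratio 0.051). Atp5b (beta) had 6163 in SVEC4-10 and 5666 in MS-1 (0.12). The other F1 genes had log2 ratios of 0.096 for Atp5c1 (gamma, -0.21 by a second probe set), 0.40 for Atp5d (delta) and -0.15 for Atp5e (epsilon). The 3 genes of the rotating c ring make the same mature protein and differ in their import sequences. Atp5g1 had signals of 1233 in SVEC4-10 and 1235 in MS-1, Atp5g2 had 3253 in SVEC4-10 and 3256 in MS-1, and Atp5g3 had 5447 in SVEC4-10 and 5766 in MS-1. On the deposited scale all 3 signals thus lay within 1.06-fold, except for a dim probe set of Atp5g2 at a log2 ratio of 1.08. Under the poly-A scaling the log2 ratios were -0.52 for Atp5g1, -0.51 for Atp5g2 and -0.59 for Atp5g3. The highest ratio among the genes outside F1 was 0.37 for Atp5h (subunit d) and the lowest -0.37 for Atp5mpl, a small associated protein. Atp5j2 (subunit f), at 0.0065, had another probe set at -0.66.

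Promoters of respiratory chain genes are known for sites of the activators NRF-1, GABP and YY1. RefSeq windows (build GRCm38.p6) of 250 bases before to 50 after each gene's start were found for 75 of the 92 members, 80 windows in all. The letters searched were, on either strand, GCGCA, any base, then GCGC for NRF-1, CCGGAAG for GABP and AAGATGGC for YY1. NRF-1 letters were in 22.5% of member windows, against 9.40% of windows of all measured genes and 4.60% of all windows. The corresponding shares were 23.8%, 16.4% and 8.86% for GABP and 12.5%, 4.10% and 2.75% for YY1, and CCAAT, the letters bound by NF-Y, was in 42.5%, 37.5% and 37.4%. A match is a description and not a site. The windows of 6 of the 7 members at least 2-fold apart are shown, 5′ to 3′ on the gene's strand, with matches to the NRF-1, GABP and YY1 letters in capitals. Ndufaf4, lower in SVEC4-10, comes first.
Ndufaf4 (chr4:24897833-24898132, plus strand): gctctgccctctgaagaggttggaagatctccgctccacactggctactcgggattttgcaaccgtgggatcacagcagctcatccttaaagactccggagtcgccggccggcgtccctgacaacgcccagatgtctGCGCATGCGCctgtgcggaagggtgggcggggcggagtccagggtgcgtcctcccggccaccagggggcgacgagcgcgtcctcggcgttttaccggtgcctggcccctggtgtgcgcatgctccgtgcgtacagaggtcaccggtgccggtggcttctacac
Cox7a1 (chr7:30183921-30184220, plus strand): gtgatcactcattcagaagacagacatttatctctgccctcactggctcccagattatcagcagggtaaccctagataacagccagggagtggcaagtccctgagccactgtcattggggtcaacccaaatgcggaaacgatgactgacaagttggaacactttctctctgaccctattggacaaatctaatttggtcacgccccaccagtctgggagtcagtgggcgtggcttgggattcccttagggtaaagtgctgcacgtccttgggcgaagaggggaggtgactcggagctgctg
Ndufb3 (chr1:58586147-58586446, plus strand): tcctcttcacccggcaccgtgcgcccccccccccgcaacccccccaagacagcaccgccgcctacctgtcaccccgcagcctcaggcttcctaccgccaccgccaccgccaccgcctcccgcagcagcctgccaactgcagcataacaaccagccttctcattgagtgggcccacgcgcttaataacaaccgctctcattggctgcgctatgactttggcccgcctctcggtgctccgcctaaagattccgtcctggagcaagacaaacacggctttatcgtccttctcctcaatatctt
Ndufaf2 (chr13:108158576-108158875, minus strand): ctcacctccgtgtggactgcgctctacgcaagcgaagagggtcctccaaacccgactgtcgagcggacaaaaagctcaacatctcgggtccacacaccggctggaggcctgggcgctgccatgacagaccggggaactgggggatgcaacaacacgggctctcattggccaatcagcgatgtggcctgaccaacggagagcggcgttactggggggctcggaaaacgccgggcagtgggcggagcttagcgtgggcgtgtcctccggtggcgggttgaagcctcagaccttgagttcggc
Ndufs7 (chr10:80249199-80249498, plus strand): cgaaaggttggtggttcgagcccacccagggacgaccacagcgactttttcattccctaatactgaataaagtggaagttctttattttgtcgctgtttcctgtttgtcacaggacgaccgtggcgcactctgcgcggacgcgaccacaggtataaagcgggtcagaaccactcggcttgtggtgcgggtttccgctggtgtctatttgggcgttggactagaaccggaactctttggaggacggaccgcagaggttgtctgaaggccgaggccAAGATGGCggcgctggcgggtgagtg
Uqcrfs1 (chr13:30545267-30545566, minus strand): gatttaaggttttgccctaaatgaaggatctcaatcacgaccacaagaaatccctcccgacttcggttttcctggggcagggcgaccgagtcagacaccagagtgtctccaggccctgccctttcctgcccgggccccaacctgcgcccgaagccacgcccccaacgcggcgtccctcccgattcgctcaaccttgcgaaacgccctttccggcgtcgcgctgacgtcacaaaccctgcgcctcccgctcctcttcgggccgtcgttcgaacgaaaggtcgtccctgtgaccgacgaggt
The window of Ndufaf4 held 1 NRF-1 match and that of Ndufs7 held 1 YY1 match, and those of Cox7a1, Ndufb3, Ndufaf2 and Uqcrfs1 held no match to these letters. NRF-1 letters stood in windows of members on both sides, such as Ndufaf5 (log2 ratio -0.80) and Ndufa6 (0.71).

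Genes that build, feed or regulate the chain were counted from lists chosen with earlier results known. Of 42 further assembly and regulatory factors, 37 were measured, 2 at least 2-fold higher in SVEC4-10 and 3 lower, with a median log2 ratio of 0.0085. In either direction 13.5% were at least 2-fold apart, against 27.4% of all measured genes. Atpif1, the inhibitor of ATP synthase running in reverse, had signals of 2569 in SVEC4-10 and 538 in MS-1, a 4.78-fold difference (log2 ratio 2.26), although its second probe set gave 0.56. Atpaf1, a chaperone of the catalytic head of complex V, had signals of 214 in SVEC4-10 and 694 in MS-1, 3.24-fold lower in SVEC4-10, with probe sets at -1.69 and -1.51. Sdhaf3, a complex II assembly factor, had signals of 118 in SVEC4-10 and 312 in MS-1 (-1.40). Tmem126b, a complex I assembly factor, had signals of 140.4 in SVEC4-10 and 63.0 in MS-1 (1.16). Sco2, a copper chaperone of complex IV, was also lower in SVEC4-10, at a log2 ratio of -1.08.

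Regulators of mitochondrial DNA and biogenesis gave 0 of 16 measured genes at least 2-fold apart, with a median of -0.20. Tfam, which packs and transcribes mitochondrial DNA, had signals of 788 in SVEC4-10 and 401 in MS-1 (log2 ratios 0.97 and 1.20 by its probe sets). Tfb2m, which opens mitochondrial promoters, had 252 in SVEC4-10 and 468 in MS-1 (-0.90), and Twnk, the mitochondrial helicase, had 118 in SVEC4-10 and 224 in MS-1 (-0.92). Gabpa, the DNA-binding subunit of GABP, gave 0.91 by the probe set used and -0.45 by another. Nrf1, which encodes NRF-1, had signals of 105 in SVEC4-10 and 131 in MS-1 (-0.32, with other probe sets up to 0.36), and the coactivator Ppargc1a was not above background on either array. None of the 13 subunits encoded in mitochondrial DNA was analysed here.

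Of 17 measured genes of the citric acid cycle and pyruvate dehydrogenase, 12 lay below 0, with a median of -0.41. Among all 12583 measured genes, 6175 lay below 0. In SVEC4-10, 1 gene of the list was at least 2-fold lower and 0 higher (5.88% in all), against 12.1% and 15.3% of all measured genes. That gene was Suclg2, a subunit of succinyl-CoA ligase (signals 846 in SVEC4-10 and 1755 in MS-1, log2 ratio -1.05). Dlst and Dld, subunits of 2-oxoglutarate dehydrogenase, had log2 ratios of -0.90 and -0.88. Pdha1, the entry subunit of pyruvate dehydrogenase, had 0.71, but 0.060 by its second probe set. The median for complex II, which is also an enzyme of the cycle, was 0.28.

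Coenzyme Q synthesis had 2 of 12 measured genes at least 2-fold higher in SVEC4-10 and 1 lower (median 0.18). In either direction this was 25%, near the 27.4% of all measured genes. Coq2, which attaches the isoprenoid tail, had signals of 268 in SVEC4-10 and 597 in MS-1 (-1.16). Coq8a was at least 2.65-fold higher in SVEC4-10 and below background in MS-1, and Coq10a had a log2 ratio of 1.11 and Coq9 of 0.66. Among 7 other enzymes that deliver electrons to coenzyme Q, 1 was at least 2-fold higher and 1 lower (28.6% in either direction, also near 27.4%). The electron-transferring flavoprotein genes of fatty acid oxidation, Etfa, Etfb and Etfdh, had log2 ratios of 0.63, 0.75 and 0.89, and Sqor, the sulfide oxidase, had 1.01. Gpd2, of the glycerol phosphate shuttle, had signals of 603 in SVEC4-10 and 1202 in MS-1 (-0.99, with other probe sets from -1.15 to 0.077). Dhodh, of pyrimidine synthesis, gave -0.72, and Prodh, proline dehydrogenase, was at least 3.32-fold lower in SVEC4-10, where it was below background.

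Among 6 measured carriers and pores none was 2-fold apart (median -0.30). Slc25a5, an exchanger of ADP and ATP, had signals of 2662 in SVEC4-10 and 4842 in MS-1, and its 8 probe sets lay between -0.86 and -0.53. The related exchanger Slc25a4 gave -0.064, and Slc25a3, the phosphate carrier, 0.23 and -0.38 by its probe sets. The outer membrane channels Vdac1, Vdac2 and Vdac3 gave -0.73, -0.23 and -0.36, and other probe sets of Vdac1 reached 0.095. For all these lists the background is the 27.4% of measured genes that were at least 2-fold apart in either direction.

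**Figure D5:**
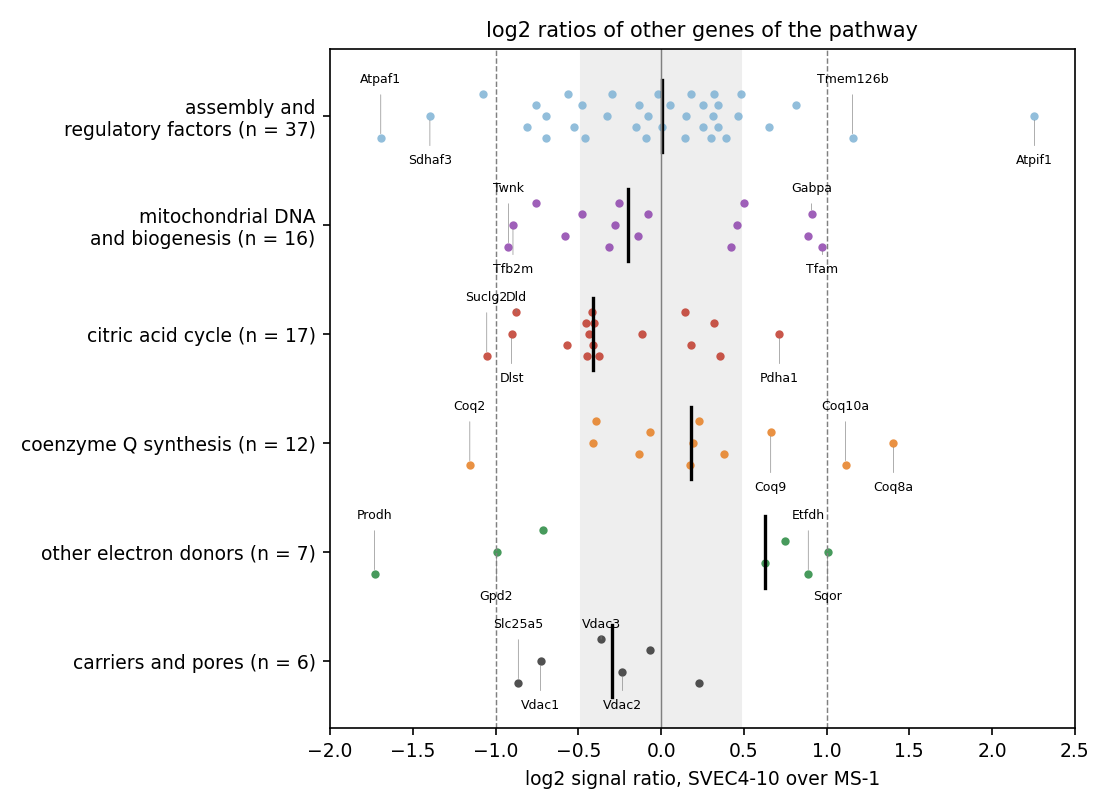
log2 signal ratio of SVEC4-10 over MS-1 (x axis) for measured genes of 6 further lists of the pathway. Each point is a gene, black bars are medians, the grey band is the probe-set error of 0.48 and dashed lines mark 2-fold differences; up to 4 genes per list are named, and Atpif1 (2.26) and Prodh (-1.73) are the farthest from 0.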

How the data were processed

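Total RNA (6 µg of 1 culture per line) was made into biotin-labelled cRNA for 1 Affymetrix array each, per the labels' protocols. The authors deposited 1 intensity per probe set, not on a log scale. The summary method is not given in the sources used here. Both arrays had the same 2%-trimmed mean of 150.001, so they share a scale, and no further scaling was applied. A shared mean assumes equal total signal in the lines.

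Probe sets were named by the platform annotation, updated by gene identifier to RefSeq GRCm38.p6; 932 probe sets with several genes were left out. Background was the 95th percentile of 129 receptor and keratin-associated probe sets, and signals were raised to it before taking log2 ratios. The measured probe set with the highest log2 signal averaged over both arrays stood for its gene, and sets marked as prone to cross-hybridise (ending x_at) did so only where there was no other. A fold against a gene below background is a lower bound. The error is the SD of the difference between 2 probe sets of a gene, divided by the square root of 2, with both above background on both arrays.

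Named were genes at least 2-fold apart, the highest, lowest and brightest member of each complex, core and F1 subunits, and isoform pairs. Up to 4 genes of each further list with the largest ratio were also named. Other members and list genes named beside these were chosen after their values were seen. The members, lists and complex groupings were chosen with earlier results of these data known. Alternatives covered scaling, background, choice of probe set and threshold. Steps were tested on simulated arrays (Python 3.11.15, pandas 2.3.3, numpy 2.4.6, scipy 1.17.1, matplotlib 3.10.9).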

Additional observations from a re-analysis of the deposited data

How the results depend on the processing

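No paired analysis was possible because each line has 1 array, and no replicate could be left out. The member median of 0.14 became -0.37 with scaling to the poly-A controls and lay between 0.051 and 0.20 under the other alternatives. With poly-A scaling, 0 members were at least 2-fold higher in SVEC4-10 and 8 lower (Cox8c, Cycs, Ndufab1, Ndufaf4, Ndufaf5, Ndufaf6, Uqcrc2 and Uqcrq), in place of 6 and 1. Taking the probe set of smallest ratio left 5 higher and 0 lower, since Ndufs7 (0.88) and Ndufaf4 (-0.95) then missed 2-fold. At 1.5-fold there were 12 and 7, and at 4-fold 0 and 0, with Cox7a1 counted at its lower bound (1.61 with no background floor). The count of 6 became 4 with arrays centred on the median probe set above background or without the less specific probe set classes, and 5 with background doubled or with the mean over probe sets. Of 348 values of the 40 genes followed through the alternatives, 302 moved by less than the error of 0.48; of the 46 that moved further, 40 came from the poly-A scaling, and none of the genes at least 2-fold apart changed sign. The number of arrays and the few probe sets per gene limit the precision.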

Other observations

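Probe sets that name several genes were kept out of the comparison, and 10 of them name a gene whose symbol fits the rule, some of which (Ndufs6, Ndufa11) have no probe set of their own and so are no members. The probe set of Ndufs6 and its copy Ndufs6b had signals of 1237 in SVEC4-10 and 629 in MS-1, a log2 ratio of 0.97, where Ndufs6 belongs to the hydrophilic arm of complex I. The probe sets of Ndufb4 with its copies Ndufb4b and Ndufb4c gave 0.15 and -0.12, and those of Ndufa11 with Ndufa11b gave 0.090 and, from a dim probe set, -0.86. The probe set shared by Ndufab1 and Ndufab1-ps gave -0.65, beside -0.60 for Ndufab1.

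Members with NRF-1 letters in the promoter window had a median log2 ratio of -0.11 (16 measured genes), and members with a window but without them 0.19 (55 genes). The ranges overlapped, from -1.44 to 0.71 with the letters and from -0.60 to 1.41 without. For GABP the medians were 0.21 with (19 genes) and 0.13 without, and for YY1 0.12 with (10 genes) and 0.13 without. No test was made of these differences, and the members share the arrays and their scaling.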
